A study of Homo sapiens with 60 samples.

Results

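The metallothionein genes MT2A, MT1E, MT1G, MT1X, MT1F, MT1A and MT1M, the transcription factor gene MTF1 and the zinc transporter genes SLC30A1 and SLC39A10 were measured by RNA sequencing in HepG2 cells, a line established from a human liver cancer. These 10 genes were taken by name from 60675 genes in the deposited table. The rule uses no measured value, but earlier results of these data were known when the names were chosen. All 10 were among the 16093 genes with enough counts to be tested. The 60 libraries form 20 groups of 3, all taken after 24 h of treatment. Each of 6 hot water extracts was given at 20, 100 and 500 µg/mL. All titles name the same batch, BatchA. The first extract, Poria Cocos (here Poria), shares a column code with Atractylodis Rhizoma (Atractylodes). Glycyrrhizae Radix (licorice) is paired in the same way with Panax Ginseng (ginseng), and Angelicae Gigantis Radix (angelica) with Paeoniae Radix (peony). A further group received 10 µM wortmannin, which blocks PI3K enzymes and served as positive control, and the last received the vehicle. The vehicle was 0.1% DMSO in the labels and 2% in the series text, and the labels of the extracts and of wortmannin name no DMSO.

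Metallothioneins are small, cysteine-rich proteins that bind zinc, copper and cadmium, and the liver is among the organs that make most of them. MTF1 senses free zinc and binds short DNA motifs, the metal response elements, in the promoters of metallothionein genes and of SLC30A1. SLC30A1 (ZnT1) moves zinc out of the cell across the plasma membrane, and SLC39A10 (ZIP10) brings zinc into the cell. In mouse cells Slc39a10 is held down by Mtf1 when zinc is high. The comparisons below ask how far MT2A, the MT1 genes and the 3 zinc genes moved with the dose of each extract and with wortmannin.

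The labels do not tell whether the 3 libraries of each group stem from separate cultures, so p-values measure the spread between libraries, which may be technical. In the names of the deposited columns the vehicle carries the code A1, wortmannin 1, Poria and Atractylodes 2, licorice and ginseng 3, and angelica and peony 4. What the code stands for is not given in the sources used here, so a difference from vehicle cannot be told apart from a difference between codes or in DMSO. Doses of an extract and extracts with the same code share their code, and whether they share their DMSO is not given in the sources used here. Library totals ran from 20852929 to 33353686 counts, and 3 counts in a library correspond to 0.0899 to 0.144 CPM (counts scaled to a common library total), a limit that covers counting error only. All 10 hepatocyte markers had a median over 1 CPM, and 0 of 6 fibroblast, 0 of 6 lung and breast and 1 of 4 endothelial markers did (PECAM1, at 1.75 CPM). Of 6 blood markers, LYZ stood at a median of 1708 CPM and CD14 at 3.64 CPM, while PTPRC, CD3E and HBB were at a median of 0. In bulk RNA, fewer cells that express a gene and less RNA of it per cell cannot be told apart. The first library of Poria at 100 µg/mL stood apart, with 15.2% of its counts from mitochondrial genes against 11.2% and 11.9% in the other 2, and results that rest on it are also given without it. Other first libraries also held a larger share than the rest of their group. They were those of ginseng at 100 µg/mL (11.6% against 8.46% and 9.65%) and at 500 µg/mL (11.9% against 9.41% and 9.50%). That of licorice at 20 µg/mL was at 10.7% against 8.10% and 8.60%.

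The coding sequences show how alike the paralogs are. MT2A and the 6 MT1 genes lie within 76.0 kb of each other on chromosome 16 (GRCh38, chr16:56608199-56684196), and each has a coding sequence of 186 bases. Printed 5′ to 3′ from the GENCODE v29 transcripts are MT2A, then MT1E, the MT1 gene with most counts, MT1G, the one nearest to MT2A, and MT1F, the one that fell furthest with Poria. Capitals mark bases that differ from MT2A.
MT2A: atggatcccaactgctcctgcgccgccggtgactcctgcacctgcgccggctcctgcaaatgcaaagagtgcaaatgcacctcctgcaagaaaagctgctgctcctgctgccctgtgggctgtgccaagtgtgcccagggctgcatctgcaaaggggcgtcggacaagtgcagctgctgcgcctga
MT1E: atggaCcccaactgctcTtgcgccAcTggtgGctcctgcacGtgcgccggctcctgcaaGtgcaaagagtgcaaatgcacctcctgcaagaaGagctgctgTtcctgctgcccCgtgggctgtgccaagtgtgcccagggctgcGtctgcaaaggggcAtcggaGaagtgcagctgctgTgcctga
MT1G: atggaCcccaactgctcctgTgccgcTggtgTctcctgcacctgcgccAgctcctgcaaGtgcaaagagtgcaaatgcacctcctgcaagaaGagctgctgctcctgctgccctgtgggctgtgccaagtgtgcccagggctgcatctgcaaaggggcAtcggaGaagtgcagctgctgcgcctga
MT1F: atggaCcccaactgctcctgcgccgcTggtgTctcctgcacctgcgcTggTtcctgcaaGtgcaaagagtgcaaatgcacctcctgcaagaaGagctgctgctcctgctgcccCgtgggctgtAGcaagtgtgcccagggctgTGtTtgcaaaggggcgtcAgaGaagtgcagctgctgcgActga

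MT1G differed from MT2A at 9 of these bases, MT1E at 14 and MT1F at 16. Identity of the coding sequence was 89.8 to 95.2% between MT2A and an MT1 gene, and 88.7 to 94.6% between MT1 genes. The longest run shared by 2 whole transcripts was 65 bases for a pair with MT2A and 96 bases for a pair of MT1 genes (MT1G and MT1X), and 0 of 6 pairs with MT2A and 0 of 15 pairs of MT1 genes shared a stretch as long as the reads of 100 bases. Estimated counts divide reads that match several genes, so single MT1 genes are less certain than the sum of the 6, called the MT1 sum here. The 11 other MT1 loci of the table held 35 counts in all 60 libraries together, or 0.00571% of all MT1 counts.

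Promoters are shown because MTF1 acts through metal response elements, and the members differ in how many such matches they hold. RefSeq promoter entries (GRCh38.p14) were matched for 5 of the 10 genes, MT2A, MT1X, MTF1, SLC30A1 and SLC39A10. The 250 bases before the RefSeq start site were searched on both strands for TGCACNC and TGCGCNC, the core of the element, and matches are in capitals.
MT2A promoter, chr16:56608334-56608583, plus strand: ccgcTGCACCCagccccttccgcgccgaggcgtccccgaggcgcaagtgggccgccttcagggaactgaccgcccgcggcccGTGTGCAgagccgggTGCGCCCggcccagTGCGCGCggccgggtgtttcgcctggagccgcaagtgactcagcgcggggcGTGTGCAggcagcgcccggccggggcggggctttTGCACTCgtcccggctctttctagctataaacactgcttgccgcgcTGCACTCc
MT1X promoter, chr16:56682220-56682469, plus strand: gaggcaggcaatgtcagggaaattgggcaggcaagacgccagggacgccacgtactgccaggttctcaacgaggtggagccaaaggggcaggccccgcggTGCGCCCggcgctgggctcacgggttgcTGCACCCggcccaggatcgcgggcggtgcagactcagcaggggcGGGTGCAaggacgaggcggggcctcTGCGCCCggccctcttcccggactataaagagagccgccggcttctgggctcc
SLC30A1 promoter, chr1:211579162-211579411, minus strand: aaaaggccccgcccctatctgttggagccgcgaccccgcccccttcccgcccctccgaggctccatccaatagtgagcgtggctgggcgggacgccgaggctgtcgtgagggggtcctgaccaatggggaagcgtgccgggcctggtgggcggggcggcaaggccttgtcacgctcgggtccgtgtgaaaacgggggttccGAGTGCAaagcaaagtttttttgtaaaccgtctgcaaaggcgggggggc

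The MT2A window held 7 matches, a number reached in 0.0313% of 35116 promoters, and that of MT1X held 4, reached in 0.370%. The SLC30A1 window held 1 match, and 24.8% of all promoters held at least 1. These letters were not found in the windows of MTF1 and SLC39A10. The RefSeq start site lies 385 bases downstream of the GENCODE start of the gene for MT2A, so its window lies wholly within the GENCODE gene. It lies 46 bases downstream for MT1X and 28 for MTF1, whose windows reach into the gene. For SLC30A1 it lies 419 bases upstream, so the 419 bases directly before its GENCODE start were not searched. The 2 RefSeq start sites of SLC39A10 lie 80981 and 81249 bases downstream, so the bases before its GENCODE start were not searched. A match describes the letters and not a binding site.

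Per kilobase of transcript, MT2A was the most abundant of the 10 in vehicle cells, at 549 ± 68.9 CPM per kb (SD, n = 3 here and below). MT1E followed at 355 ± 44.2 and MT1G at 275 ± 33.1 CPM per kb. MT1X was at 96.9 ± 7.57, MT1F at 66.7 ± 11.6 and SLC30A1 at 17.7 ± 0.740 CPM per kb. MT1A, MTF1, SLC39A10 and MT1M were at 5.47, 2.20, 2.09 and 1.27 CPM per kb. These values use transcript lengths of GENCODE v29, and another annotation would shift them. They divide by the whole length with no correction for the length of the sequenced fragments. The order of genes of unlike length, such as MT1E (704 bases) and MT1G (406 bases), is therefore not certain. MT1M had as few as 1 count in a library and MT1A as few as 17, so both are close to the limit of what was counted.

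Across the 60 libraries MT2A ranged from 95.5 to 634 CPM with a median of 444 CPM, and the MT1 sum from 42.4 to 654 CPM with a median of 423 CPM. Both lowest values are the library that stood apart, and without it the lowest were 184 CPM for MT2A and 87.8 CPM for the MT1 sum. CPM values are relative to a library's total, and fold changes also use the scaling factors of the fit. For both, the lowest group mean was that of Poria at 100 µg/mL, with or without that library. The highest was that of angelica at 20 µg/mL, but without angelica 20 replicate 3 it was that of ginseng at 20 µg/mL. In the order of group means for MT2A, 17 of 19 neighbouring groups overlapped in their libraries. For the MT1 sum 15 of 19 did, and the 2 lowest groups, Poria at 100 and at 500 µg/mL, were each separate from the next. Over the 20 group means, MT2A and the MT1 sum had a Pearson r of 0.808, and 0.769 without the library that stood apart, given as a description.

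**Figure D1:**
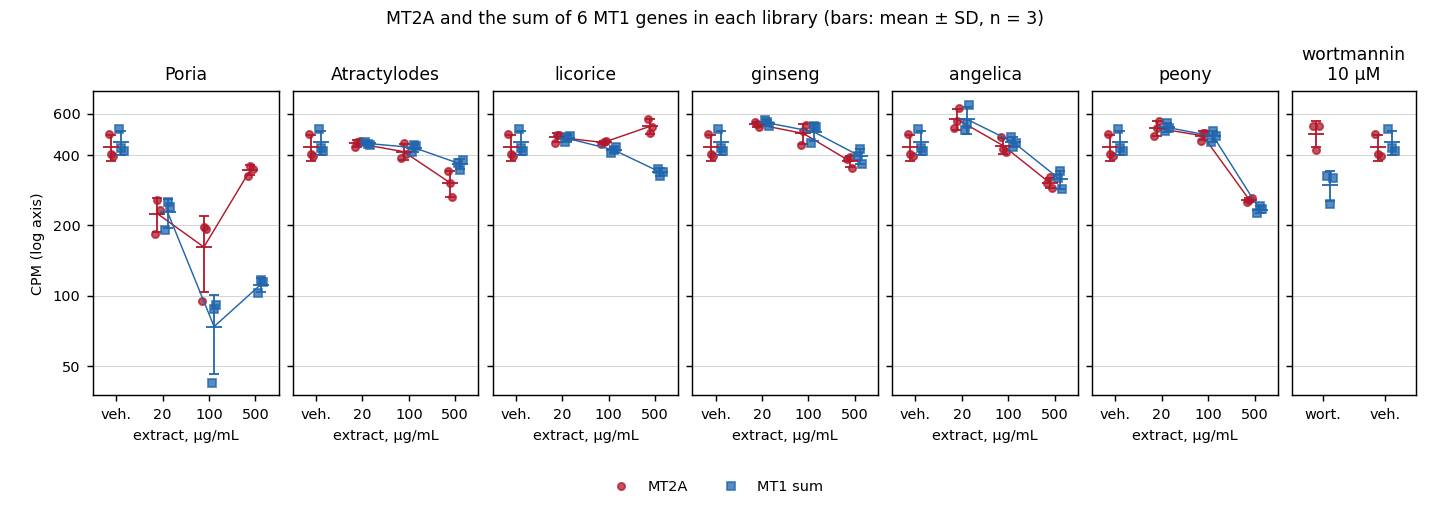
CPM of MT2A (circles) and of the 6 MT1 genes summed (squares) in each library on a log axis, by extract and dose with vehicle at the left, and for wortmannin and vehicle. Bars are mean ± SD of 3 libraries. With Poria the MT1 sum drops to 73.9 CPM at 100 µg/mL (89.6 CPM without the library that stood apart) while MT2A stands at 346 CPM at 500 µg/mL. With peony both drop at 500 µg/mL.

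Poria split the family: at 500 against 20 µg/mL, MT2A rose 1.63-fold while the MT1 sum fell 1.93-fold. MT2A had 327, 360 and 350 CPM at 500 µg/mL against 184, 257 and 233 CPM at 20 µg/mL, and the MT1 sum had 103, 117 and 115 CPM against 192, 252 and 239 CPM. The 2 doses did not overlap for either. In edgeR's quasi-likelihood test, the log2 fold change was 0.70 (SE 0.126, adjusted p = 7.88e-06) for MT2A and -0.95 (SE 0.123, adjusted p = 7.22e-09) for the MT1 sum. MT1F fell furthest, to 4.44, 3.91 and 3.50 CPM at 500 µg/mL, against 18.4, 22.5 and 22.2 CPM at 20 µg/mL, a log2 change of -2.32 (SE 0.145, adjusted p = 6.89e-19). MT1G was at 14.2, 14.7 and 15.3 CPM against 40.7, 61.0 and 50.6 CPM, 3.27-fold lower (adjusted p = 2.48e-13 in edgeR). MT1E and MT1X fell less, by 0.68 and 0.61 on the log2 scale. Of the 10 genes 3 rose and 6 fell, where 22.3% of all genes tested rose and 21.2% fell. The rise of MTF1 (log2 0.18, adjusted p = 0.0367 in edgeR) was lost without any of 4 libraries, Poria 500 replicate 1 or 3 or Poria 20 replicate 1 or 3 (adjusted p 0.0827 to 0.124), and the fall of MT1M without Poria 500 replicate 1 or 3 or Poria 20 replicate 3 (0.0790 to 0.213). In a regression on log dose over all 9 Poria libraries MT2A (adjusted p = 0.0669), MT1E (0.129), MT1X (0.0863) and MT1M (0.0802) did not pass.

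The middle dose of Poria held the lowest levels. At 100 µg/mL MT2A had 95.5, 196 and 193 CPM and the MT1 sum 42.4, 87.8 and 91.5 CPM, and the first library of each set is the one that stood apart. At 100 against 20 µg/mL the MT1 sum was lower by 1.58 (SE 0.126) and MT2A by 0.43 (SE 0.128) on the log2 scale, with adjusted p of 3.67e-14 and 0.0113 in edgeR. Of the 10 genes, 1 rose and 7 fell in this step, where 9.84% of all genes rose and 8.99% fell. At 500 against 100 µg/mL MT2A was 2.20-fold higher (adjusted p = 1.53e-09) and the MT1 sum 1.55-fold higher (adjusted p = 0.000185 in edgeR). Here 5 members rose and 0 fell, where 10.9% of all genes rose and 8.33% fell. Without the library that stood apart, the step to 100 µg/mL was -1.31 for the MT1 sum and -0.17 for MT2A, and MT2A (adjusted p = 0.264) and MT1M (0.0692) were no longer called. MT2A was also lost without Poria 20 replicate 2 (0.116) and MT1M without Poria 20 replicate 3 (0.120). The step to 500 µg/mL was then 0.88 for MT2A and 0.37 for the MT1 sum, both still called (adjusted p = 9.20e-09 and 0.00699 in edgeR), and 2 members were called in place of 5. Without Poria 500 replicate 3 the count was 3. The rise of SLC30A1 in this step (log2 0.12) was lost without Poria 500 replicate 2 or 3 or Poria 100 replicate 1 or 2, and that of SLC39A10 (log2 0.24) without Poria 500 replicate 3 or Poria 100 replicate 1. These omissions were chosen after the data were seen.

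MT1F had 4.44, 3.91 and 3.50 CPM at 500 µg/mL against 3.17, 4.42 and 5.24 CPM at 100 µg/mL, and MT1G had 14.2, 14.7 and 15.3 CPM against 5.08, 13.1 and 14.8 CPM. Both overlapped between the doses, and neither passed (adjusted p = 0.843 for MT1F and 0.0936 for MT1G in edgeR). MT1G passed without Poria 100 replicate 3 (0.0135). MT1E was 1.68-fold and MT1X 1.42-fold higher at 500 than at 100 µg/mL, and both passed. Without the library that stood apart the log2 changes were 0.49 for MT1E, which passed (adjusted p = 0.000641 in edgeR), and 0.25 for MT1X, which did not (0.0740).

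**Figure D2:**
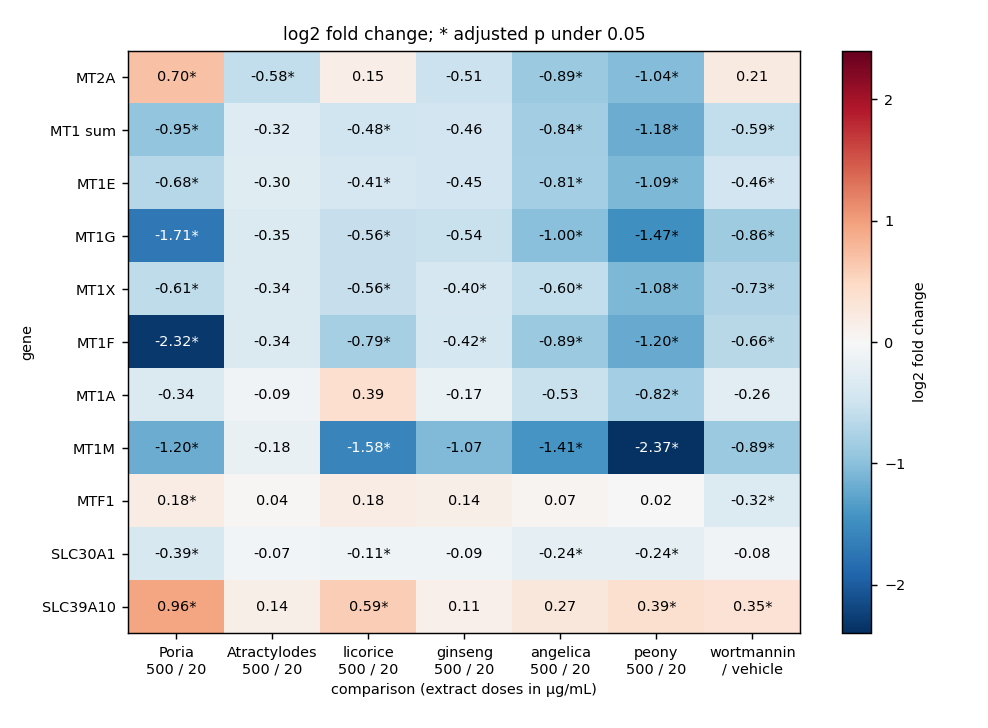
Log2 fold change of each gene and of the MT1 sum at 500 against 20 µg/mL for the 6 extracts, and for wortmannin against vehicle. Red is higher and blue lower in the first-named group, and a star marks an adjusted p under 0.05 in edgeR. MT2A is at 0.70 with Poria and at -1.04 with peony, while the MT1 sum is below 0 in every column.

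With licorice the MT1 genes fell over the doses, and MT2A did not pass the test. The MT1 sum had 350, 325 and 340 CPM at 500 µg/mL against 455, 477 and 482 CPM at 20 µg/mL, with no overlap, a log2 change of -0.48 (SE 0.118, adjusted p = 0.00168 in edgeR). MT2A had 570, 496 and 527 CPM against 451, 489 and 490 CPM, and its change of 0.15 (SE 0.124) did not pass (adjusted p = 0.443). With no filter on low counts it passed (adjusted p = 0.0357 in edgeR). Here and below, that fit gave far smaller p for several metallothioneins at nearly the same change. A pass in it alone is therefore not counted as a call. MT1E, MT1G, MT1X, MT1F and MT1M fell, and MT1A stood at 0.39 without passing. Of the 10 genes 1 rose and 6 fell, where 11% of all genes rose and 10.3% fell. The small fall of SLC30A1 (log2 -0.11, adjusted p = 0.0338 in edgeR) was lost without any 1 of 5 libraries, licorice 500 replicates 1 and 2 and licorice 20 replicates 1, 2 and 3 (adjusted p 0.0520 to 0.167).

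With peony MT2A and all 6 MT1 genes fell, and with angelica MT2A and 5 of the 6 MT1 genes. With peony MT2A had 251, 258 and 263 CPM at 500 µg/mL against 482, 523 and 560 CPM at 20 µg/mL, and the MT1 sum had 225, 241 and 236 CPM against 506, 550 and 522 CPM. The doses were far apart for both. MT2A was 2.05-fold and the MT1 sum 2.27-fold lower (log2 -1.04, SE 0.126, and -1.18, SE 0.120, with adjusted p of 7.57e-08 and 4.79e-10 in edgeR). All 6 MT1 genes fell, but MT1A was lost without peony 500 replicate 3 (adjusted p = 0.0577 in edgeR). MT1A was also lost when only these groups were fitted (0.0744) and in a regression on log dose (0.0638). In all 1 member rose and 8 fell, where 1.8% of all genes rose and 1.7% fell. The step lay between 100 and 500 µg/mL, where the MT1 sum was 2.08-fold lower and 8 members fell (adjusted p = 2.12e-08 for the MT1 sum in edgeR), where 0.634% of all genes fell. In this step MT1A was lost without peony 500 replicate 1 or 3 or peony 100 replicate 1 (adjusted p 0.0519 to 0.117 in edgeR), and SLC30A1 without peony 500 replicate 1 or 2 or peony 100 replicate 2 (0.0557 to 0.123).

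With angelica MT2A had 304, 321 and 289 CPM at 500 µg/mL against 520, 557 and 634 CPM at 20 µg/mL, and the MT1 sum had 319, 340 and 286 CPM against 510, 543 and 654 CPM. Neither overlapped between the doses. The log2 changes were -0.89 (SE 0.125, adjusted p = 3.89e-06) for MT2A and -0.84 (SE 0.118, adjusted p = 4.15e-06) for the MT1 sum in edgeR. Of the 10 genes 0 rose and 7 fell, where 0.534% of all genes rose and 0.684% fell. The 7 were MT2A, MT1E, MT1F, MT1G, MT1M, MT1X and SLC30A1, while MT1A stood at -0.53 and did not pass (adjusted p = 0.147 in edgeR). As many members, 7, were called without any 1 of the 6 libraries at these doses. When only these groups were fitted, MT1M (adjusted p = 0.0586) and SLC30A1 (0.0515) were lost.

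Atractylodes and ginseng gave lower values whose calls depend on single libraries. With ginseng MT2A had 385, 392 and 353 CPM at 500 µg/mL against 554, 544 and 528 CPM at 20 µg/mL, and the MT1 sum had 395, 425 and 367 CPM against 563, 553 and 534 CPM. The doses did not overlap, but the changes of -0.51 (SE 0.124) and -0.46 (SE 0.118) did not pass over all genes (adjusted p = 0.0707 and 0.111 in edgeR). MT1X (adjusted p = 0.0438) and MT1F (0.0462) fell, so that 0 members rose and 2 fell, where 0.0249% of all genes rose and 0.124% fell. Without ginseng 20 replicate 1, 2 or 3 or ginseng 500 replicate 1 or 3 no member passed, and without ginseng 500 replicate 2 MT1X did not (adjusted p = 0.0664). With Atractylodes MT2A had 343, 305 and 266 CPM at 500 µg/mL against 432, 455 and 458 CPM at 20 µg/mL, 1.5-fold lower (log2 -0.58, SE 0.125, adjusted p = 0.0486 in edgeR). It was the 1 member that fell, with 0 that rose, where 0.0373% of all genes fell and 0.0124% rose. The call was lost without Atractylodes 20 replicate 1, 2 or 3 or Atractylodes 500 replicate 2 or 3 (adjusted p 0.117 to 0.731). The MT1 sum of Atractylodes had 372, 346 and 382 CPM against 457, 445 and 444 CPM, a change of -0.32 (SE 0.118) that did not pass (adjusted p = 0.839).

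The ratio of MT2A counts to MT1 counts in each library needs no scaling between libraries and shows where MT2A and the MT1 genes parted. With Poria it was 0.984, 2.20 (2.17 without the library that stood apart) and 3.10 at 20, 100 and 500 µg/mL, a slope of 0.83 on the log2 scale per 5-fold dose. With licorice it was 1.01, 1.08 and 1.57, a slope of 0.32. In an exact two-sided permutation test over the 9 libraries of each extract, with adjustment over 6 extracts, both had p = 0.00357 (raw p = 0.00119, the smallest these 9 libraries allow). A library at the middle dose has no weight in a slope over evenly spaced doses, so leaving out the one that stood apart gave the same slope (adjusted p = 0.0107, exact permutation test). Peony had 0.991, 1.00 and 1.10 with a slope of 0.07 that did not pass (adjusted p = 0.0554, exact permutation test), and passed without peony 20 replicate 3 (0.00714). For Atractylodes the ratio was 1.00, 0.960 and 0.827, a slope of -0.14 (adjusted p = 0.0214, exact permutation test). That call was lost without Atractylodes 20 replicate 2 (0.0884) or 3 (0.0938) or Atractylodes 500 replicate 3 (0.0696), and without the last the slope was -0.07. Ginseng and angelica had slopes of -0.02 and -0.03, and neither passed (adjusted p = 0.141 and 0.293, exact permutation test), although ginseng did without ginseng 100 replicate 3 (0.0471).

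**Figure D3:**
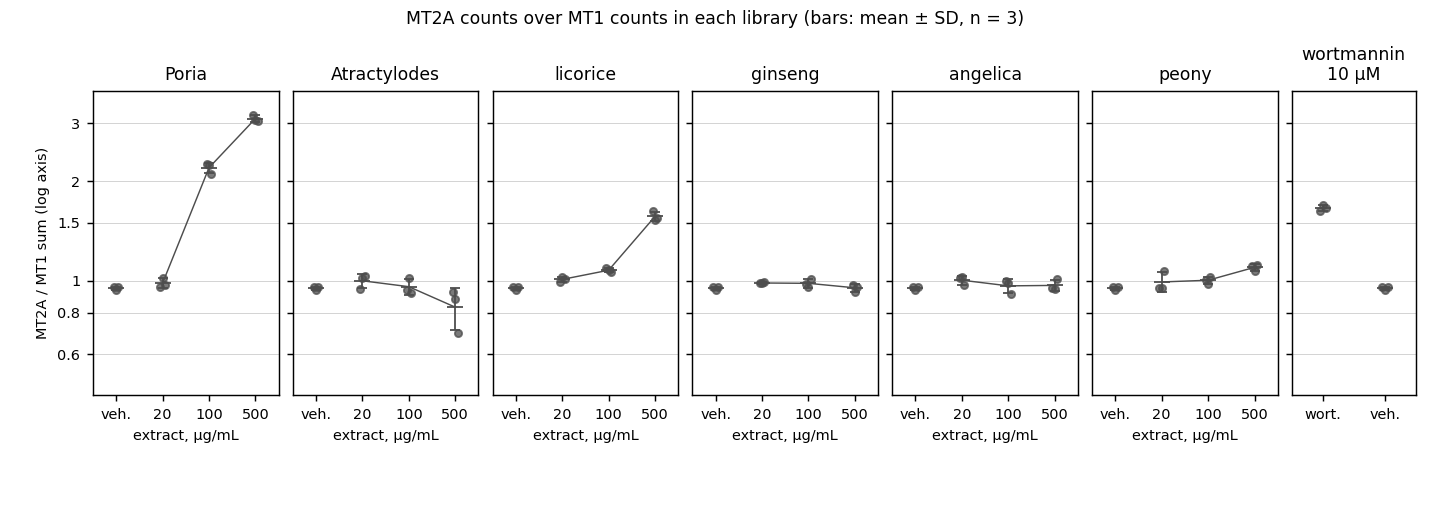
MT2A counts divided by the summed counts of the 6 MT1 genes in each library on a log axis, by extract and dose with vehicle at the left, and for wortmannin and vehicle. Bars are mean ± SD of 3 libraries. The ratio climbs to 3.10 with Poria, 1.57 with licorice and 1.66 with wortmannin, against 0.951 in vehicle.

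With wortmannin the MT1 genes fell, and MT2A did not pass the test. The MT1 sum had 326, 248 and 319 CPM with wortmannin against 517, 429 and 416 CPM with vehicle, with no overlap, a log2 change of -0.59 (SE 0.118, adjusted p = 3.91e-05 in edgeR). MT2A had 532, 422 and 531 CPM against 494, 403 and 398 CPM, which overlap, and its change of 0.21 did not pass (adjusted p = 0.165). With no filter on low counts it passed at 0.19 (adjusted p = 0.00105 in edgeR). The ratio of MT2A to the MT1 sum was 1.66 with wortmannin and 0.951 with vehicle. The libraries did not overlap in it, and the exact permutation test gave p = 0.10, the smallest that 3 against 3 libraries allow. Of the 10 genes 1 rose and 6 fell, where 22.4% of all genes rose and 24% fell. The 6 were MT1E, MT1F, MT1G, MT1X, MT1M and MTF1. MT1M was lost without vehicle replicate 3 (adjusted p = 0.0614).

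Set against vehicle, the MT1 sum of Poria was the lowest of the 6 extracts at every dose. It was lower by 0.97, 2.55 and 1.92 on the log2 scale at 20, 100 and 500 µg/mL (adjusted p = 5.83e-07, 1.43e-21 and 2.01e-18 in edgeR). MT2A was lower by 0.91 and 1.35 at 20 and 100 µg/mL, and its -0.21 at 500 µg/mL did not pass (adjusted p = 0.159). It did pass when only these groups were fitted (0.0236) and with no filter on low counts (5.43e-05). At 20 µg/mL 1 member rose and 7 fell, where 2.09% of all genes rose and 1.71% fell. Of these SLC30A1 was lost when only these groups were fitted, with no filter, and without vehicle replicate 1 or Poria 20 replicate 3 (adjusted p 0.0763 to 0.117). MT1M was lost when only these groups were fitted and without vehicle replicate 3 or Poria 20 replicate 2 (0.0522 to 0.0978). Without the library that stood apart, the values at 100 µg/mL were -2.27 for the MT1 sum and -1.08 for MT2A, and the same count of 9 members was called. That count was 1 up and 8 down, where 15.1% of all genes rose and 15.3% fell, and at 500 µg/mL it was 2 up and 7 down, where 23.9% rose and 23.7% fell. At 500 µg/mL MTF1, 1 of the 2 that rose, was lost without vehicle replicate 3 (adjusted p = 0.0988 in edgeR).

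For peony at 500 µg/mL 1 member rose and 8 fell against vehicle, where 9.68% of all genes rose and 9.98% fell. MT1A, among those that fell, was lost without vehicle replicate 1 (adjusted p = 0.0635 in edgeR) or peony 500 replicate 3 (0.0691). For angelica at 500 µg/mL 1 rose and 7 fell, where 9.51% rose and 9.41% fell. SLC39A10, the 1 that rose, was lost without vehicle replicate 3 (adjusted p = 0.122 in edgeR) or angelica 500 replicate 2 (0.112). MT1E was lost without vehicle replicate 1 (0.0703) or angelica 500 replicate 3 (0.0521), and MT1M without vehicle replicate 3 (0.0525). Licorice at 500 µg/mL had 1 up and 4 down, where 16.7% rose and 15.7% fell. MT1E, at -0.29 there, lay close to the threshold (adjusted p = 0.0519 in edgeR) and passed when only these groups were fitted (0.00533). MT1E also passed with DESeq2's size factors (0.0484), with a mean of at least 1 CPM (0.0282) and with no filter (1.80e-07). MT2A was not called but was higher by 0.29 and passed when only these groups were fitted (adjusted p = 0.00798 in edgeR). It also passed without vehicle replicate 1 (0.40, 0.0242) and with no filter (0.29, 1.79e-07). The fit with no filter gave far smaller p at nearly the same change, so that pass alone is not counted. At the lower doses of these extracts fewer members were called. Licorice at 100 µg/mL had 1 up and 2 down, where 8.76% of all genes rose and 7.68% fell. There MT1M was lost without vehicle replicate 1 or 3 or licorice 100 replicate 1 or 2 (adjusted p 0.0537 to 0.108 in edgeR). Licorice at 20 and angelica at 100 µg/mL had 0 called, where 11.2% and 14.6% of all genes were. The counts were 0 for peony at 20 and 100 µg/mL in edgeR, where 15.8% and 10% of all genes were called. At an unadjusted p under 0.05 they were 4 and 1. The share of all genes at that level was not taken, so these counts have no background to be read against. DESeq2 called 0 and 0, and its shares of all genes are not given here. Angelica at 20 µg/mL had MT2A higher by 0.40 and the MT1 sum by 0.33 on the log2 scale (adjusted p = 0.0138 and 0.0347 in edgeR). There 3 members rose and 1 fell against vehicle, where 12.1% of all genes rose and 12.2% fell. Neither was called without angelica 20 replicate 3, vehicle replicate 2 or vehicle replicate 3. There the MT1 sum was at 0.21 to 0.28 on the log2 scale (adjusted p 0.123 to 0.292 in edgeR) and MT2A at 0.32 to 0.35 (adjusted p 0.0679 to 0.122).

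Within the MT1 sum the makeup moved most with Poria. MT1F made up 3.57% of MT1 counts at 500 µg/mL, the lowest of all groups, against 10.1% in vehicle, the highest. MT1E made up 69.1% with Poria at 500 µg/mL, the highest, against 55.0% in vehicle, the lowest. MT1G was lowest with Poria at 500 µg/mL, at 13.2%, and highest with angelica at 20 µg/mL, at 25.5%. Without angelica 20 replicate 3 the highest was peony at 100 µg/mL, at 25.4%. MT1X was highest with Poria at 100 µg/mL, at 13.9%, also the highest without the library that stood apart, and lowest with angelica at 20 µg/mL, at 8.11%. The highest group mean of MT1A was 1.99% with Poria at 100 µg/mL, which was 1.35% without the library that stood apart, where MT1A made up 3.28%. That of MT1M was 0.284% with ginseng at 20 µg/mL. Because reads shared by MT1 genes are divided by estimation, these shares carry that uncertainty.

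**Figure D4:**
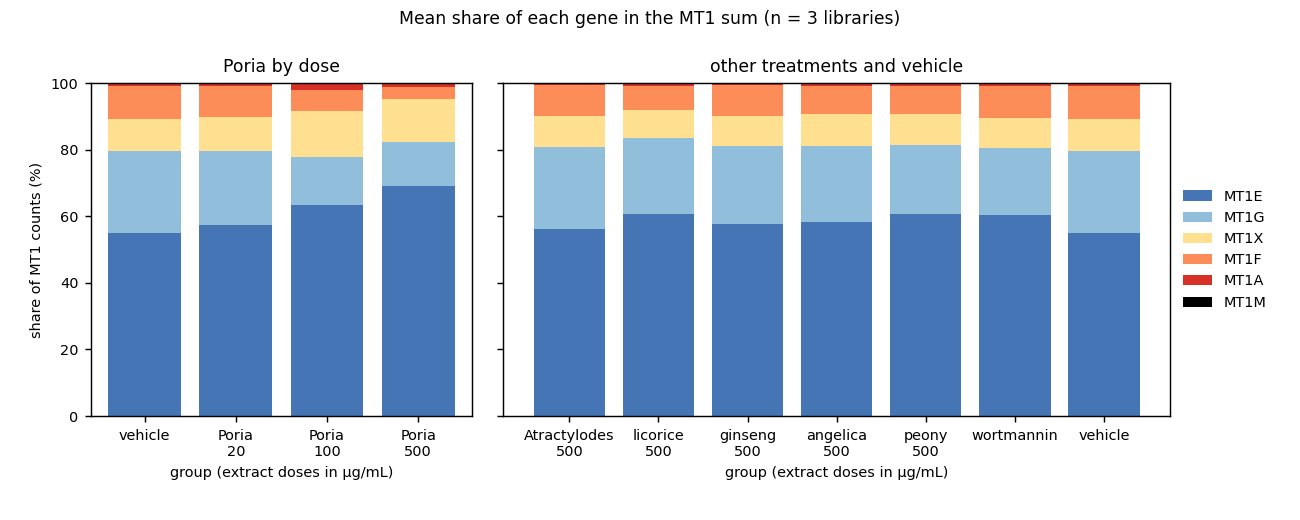
Mean share of each MT1 gene in the MT1 sum (%, 3 libraries a group), for Poria by dose with vehicle at the left, and for the other extracts at 500 µg/mL, wortmannin and vehicle. MT1F shrinks to 3.57% and MT1E grows to 69.1% with Poria at 500 µg/mL.

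SLC30A1, the zinc exporter, fell over the doses of Poria, peony and angelica, by less than the MT1 sum. With Poria it had 57.9, 64.8 and 62.1 CPM at 500 µg/mL and 53.3, 58.9 and 62.2 CPM at 100 µg/mL, against 84.9, 85.4 and 85.6 CPM at 20 µg/mL. Both higher doses lay below the lowest without overlap. At 100 against 20 µg/mL the log2 change was -0.51 with and -0.46 without the library that stood apart, and both passed (adjusted p = 5.91e-15 and 3.52e-12 in edgeR). At 500 against 20 µg/mL it fell by 0.39 (SE 0.0383, adjusted p = 3.22e-12 in edgeR) on the log2 scale. Peony had 81.2, 82 and 83.3 CPM at 500 µg/mL against 98.8, 92.2 and 97.0 CPM at 20 µg/mL, and angelica had 80.4, 78.5 and 81.6 CPM against 94.9, 96.8 and 94.5 CPM. Both pairs were free of overlap and both changes were -0.24 (adjusted p = 1.63e-05 for peony and 3.36e-05 for angelica in edgeR). With wortmannin it had 89.5, 88.5 and 94.4 CPM against 101, 93.6 and 95.5 CPM with vehicle, which overlap (log2 -0.08, adjusted p = 0.0923 in edgeR). Without vehicle replicate 2 it passed (0.0331).

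SLC39A10, the zinc importer, rose with Poria, licorice, peony and wortmannin. With Poria it had 28.0, 28.6 and 31.2 CPM at 500 µg/mL and 22.4, 27.2 and 26.2 CPM at 100 µg/mL, against 15.1, 15.0 and 17.8 CPM at 20 µg/mL. Every library of the higher doses lay above those of the lowest. At 100 against 20 µg/mL the log2 change was 0.71 with and 0.78 without the library that stood apart, and both passed (adjusted p = 3.24e-09 and 3.39e-09 in edgeR). At 500 against 20 µg/mL SLC39A10 rose 1.94-fold (log2 0.96, SE 0.0815, adjusted p = 4.40e-14 in edgeR). With licorice it had 19.8, 17.5 and 20.4 CPM at 500 µg/mL against 14, 12.2 and 12 CPM at 20 µg/mL, 1.5-fold higher (adjusted p = 6.82e-07 in edgeR). Peony had 15.7, 16 and 13.9 CPM against 11.8, 10.7 and 11.9 CPM (log2 0.39, adjusted p = 0.00586 in edgeR), a call lost without peony 20 replicate 2 (0.0657). Angelica had 13.6, 14.9 and 12.8 CPM against 11.6, 11.6 and 11.2 CPM, without overlap, and did not pass (log2 0.27, adjusted p = 0.155 in edgeR). With wortmannin SLC39A10 had 14.8, 13.9 and 14.3 CPM against 12.1, 11.4 and 10.5 CPM with vehicle, and rose by 0.35 (SE 0.0900, adjusted p = 0.000944 in edgeR).

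MTF1, the zinc sensor, stayed within 12.6 and 19.5 CPM in all 60 libraries. Its lowest group was wortmannin, at 12.8, 14.5 and 14.3 CPM against 17.8, 18.6 and 16.1 CPM with vehicle, without overlap (log2 -0.32, SE 0.0747, adjusted p = 0.000364 in edgeR). Of its 6 dose changes only that of Poria, given above, passed. All 19 neighbours in the order of its group means overlapped. RNA of MTF1 says nothing of the amount or activity of the protein.

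**Figure D5:**
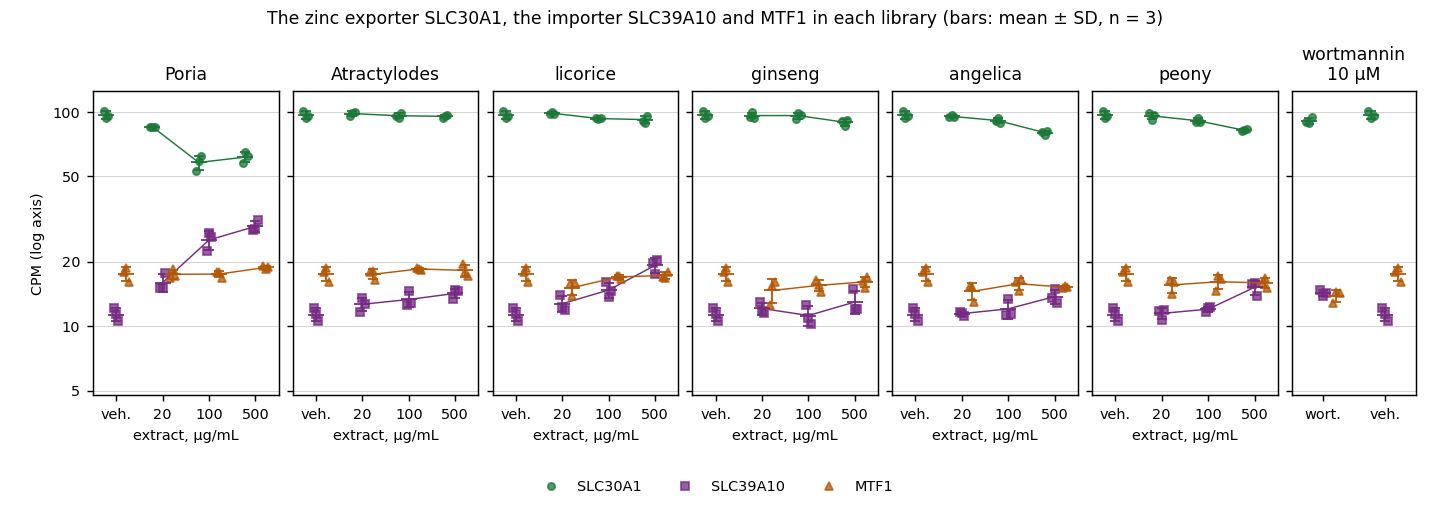
CPM of SLC30A1 (circles), SLC39A10 (squares) and MTF1 (triangles) in each library on a log axis, by extract and dose with vehicle at the left, and for wortmannin and vehicle. Bars are mean ± SD of 3 libraries. With Poria SLC30A1 drops to 58.1 CPM at 100 µg/mL (60.5 CPM without the library that stood apart) and SLC39A10 climbs to 29.2 CPM at 500 µg/mL.

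Extracts with the same column code could be compared directly at 500 µg/mL. Poria had 103, 117 and 115 CPM of the MT1 sum against 372, 346 and 382 CPM with Atractylodes, 3.02-fold lower (log2 -1.60, SE 0.123, adjusted p = 1.37e-15 in edgeR). MT2A of the 2 extracts overlapped, at 327, 360 and 350 CPM with Poria and 343, 305 and 266 CPM with Atractylodes. Its log2 change of 0.30 (adjusted p = 0.0460) was lost without Poria 500 replicate 2 or 3 or Atractylodes 500 replicate 2 or 3 (0.0912 to 0.233). In all 2 members rose and 7 fell, where 21.8% of all genes rose and 21.1% fell. MT1A, among those that fell, was lost without Poria 500 replicate 1 or 3 or Atractylodes 500 replicate 1 (adjusted p 0.0720 to 0.125 in edgeR). It was also lost when only these groups were fitted (0.0621). Licorice against ginseng had 570, 496 and 527 CPM of MT2A against 385, 392 and 353 CPM, 1.39-fold higher without overlap (adjusted p = 0.00305 in edgeR). The MT1 sum of that pair, at -0.24, did not pass (adjusted p = 0.142). There 3 members rose and 3 fell, where 11.7% of all genes rose and 10.7% fell. MT1M, 1 of those that fell, was lost without licorice 500 replicate 1 (adjusted p = 0.0715 in edgeR) or ginseng 500 replicate 2 (0.200). It was also lost when only these groups were fitted (0.0613). Angelica against peony had 319, 340 and 286 CPM of the MT1 sum against 225, 241 and 236 CPM, higher by 0.45 (SE 0.119, adjusted p = 0.0122 in edgeR). That call was lost without angelica 500 replicate 2 (0.0739) or peony 500 replicate 1 (0.0613), where the count of 4 members up and 0 down also dropped to 2, beside 3.59% of all genes that rose and 2.58% that fell. MT1E, 1 of the 4, was lost without any of 5 libraries, all but angelica 500 replicate 3 (adjusted p 0.0635 to 0.142).

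The dose changes themselves differed between extracts. A joint edgeR test that the 6 changes from 20 to 500 µg/mL are equal gave adjusted p = 1.65e-11 for MT2A, whose changes ran from -1.04 to 0.70, and 0.000111 for the MT1 sum, from -1.18 to -0.32. MT1F (2.92e-12) and SLC39A10 (3.05e-07) also passed. MTF1 was the 1 member that did not (0.598), and 35.1% of all genes passed this test. Between extracts with the same code, the change differed in 5 members for Poria and Atractylodes, where it differed in 29.5% of all genes, and in 2 for licorice and ginseng, where it did in 8.79%. For angelica and peony it differed in 0 members in edgeR, where it did in 0.926% of all genes. At an unadjusted p under 0.05 it differed in 4, and the share of all genes at that level was not taken. DESeq2 called MT1X there (adjusted p = 0.0136), and so did edgeR when genes whose mean was under 1 CPM were left out (0.0475).

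Other genes of zinc, copper and thiol biology give the setting. Their counts stand beside the shares of all genes that rose and fell at 500 against 20 µg/mL, which were 22.3% and 21.2% with Poria, 11% and 10.3% with licorice, 1.8% and 1.7% with peony and 0.534% and 0.684% with angelica. The importer counts with Poria are near those shares. Of 6 tested genes from a zinc exporter list drawn by family name, without SLC30A1, 1 rose and 2 fell with Poria at 500 against 20 µg/mL. SLC30A10 was lower by 0.73 and SLC30A7, a transporter of the Golgi, higher by 0.58 on the log2 scale. Which metal each of these genes carries was not tested. Of 11 tested zinc importers other than SLC39A10, 2 rose and 3 fell with Poria, with a median log2 change of 0.05. SLC39A5 was at -0.53, and SLC39A14, a zinc and manganese importer of hepatocytes, was at -0.25. With licorice 2 of the 11 importers rose and 3 fell, with peony 1 rose and 0 fell, and with angelica 0 rose and 1 fell. Of 11 tested copper genes, 3 rose and 4 fell with Poria, and CP, which encodes ceruloplasmin, was at 0.30 with Poria and at -0.42 with licorice. None of 10 other metallothionein loci, MT3 and MT4 among them, had enough counts to be tested.

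Of 10 genes of metal and thiol stress, 8 rose and 0 fell with Poria at 500 against 20 µg/mL, with a median log2 change of 0.67 beside -0.01 over all genes. SLC7A11, the cystine carrier, rose by 1.38 and GCLM, a subunit of the first enzyme of glutathione synthesis, by 1.38. With licorice 6 rose and 0 fell, and GCLM was at 1.39 and NQO1, a quinone reductase, at 1.29. With angelica 4 rose and 0 fell by at most 0.32, and with peony 4 rose and 4 fell. Wortmannin against vehicle gave 3 up and 4 down, where 22.4% of all genes rose and 24% fell, with HMOX1, heme oxygenase, at -0.57. Of 7 tested glucocorticoid targets, 3 rose and 2 fell with Poria, 3 rose and 1 fell with licorice, and 5 rose and 2 fell with wortmannin. SGK1, a kinase gene induced by glucocorticoids, was at 1.40 with wortmannin but at -0.50 with Poria, -0.98 with licorice and -0.58 with peony.

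Among 10428 genes with a symbol and a mean of at least 5 CPM, metallothioneins left out, the gene whose 20 group means followed the MT1 sum most closely was SLC30A1, with a Pearson r of 0.948. CSRP1 (0.917), NSDHL (0.917), ACAT2 (0.908) and NEU1 (0.900) came next. SLC39A10 had r = -0.910, rank 10427 of 10428. Without the library that stood apart these were 0.942 for SLC30A1, still the closest, and -0.928 for SLC39A10, rank 10428, and CETN2 and UBE2L6 took the places of ACAT2 and NEU1. For MT2A the closest were IFITM3 (0.798), C18orf32 (0.789), GRINA (0.788), RPL7P9 (0.762) and NDUFS7 (0.754), and SLC30A1 had rank 11 (r = 0.723). Without that library only IFITM3 and GRINA were still among the closest 5. These values describe 20 groups, of which 3 are Poria and stand at one end, and carry no test.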

How the data were processed

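RNA of 60 HepG2 libraries (20 groups of 3) was sequenced as paired 100-base reads from a directional library kit, per the labels' protocols. The submitters' processing notes name FastQC 0.11.9, Trim Galore 0.6.5, STAR 2.7.3a and RSEM 1.3.3 with the GRCh38 build. The authors deposited expected counts per gene, of which 76.1% of values above 0 were whole, and 60 columns were used. The other 210 of 270 columns of the table were not used. Expected counts were rounded to whole numbers. Genes were kept by edgeR's filterByExpr (minimum count 10, minimum total 15), which left 16093 of 60675. A quasi-likelihood model with 20 groups and TMM factors (0.926 to 1.03) was fitted to all libraries with 40 residual degrees of freedom (R 4.3.3, edgeR 4.0.16, limma 3.58.1), and p-values were adjusted by Benjamini-Hochberg over all genes, with 0.05 as threshold. The MT1 sum was fitted beside the genes without changing library sizes, and its p was adjusted over all genes plus itself. CPM divides by library totals of 20852929 to 33353686 counts. The code was tested on simulated data.

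Members and gene lists were chosen with earlier results of these data known. Named genes were the 10 members, of each other list at most 4 past the threshold with the largest change, and the 5 genes whose log2 group means (CPM plus 0.5) correlate best with MT2A or the MT1 sum. Alternatives were DESeq2 1.42.0, its size factors, no filter, a mean of at least 1 CPM, unrounded counts, fits of the compared groups alone, a log-dose regression, MT1 and MT2A summed, a replicate block and leaving out each library.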

Additional observations from a re-analysis of the deposited data

Results flagged for a closer look

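The change from 20 to 500 µg/mL was compared between the 2 extracts with the same column code, as an interaction term in edgeR. Poria and Atractylodes differed in 29.5% of all genes tested, and licorice and ginseng in 8.79%.

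MT2A changed by 0.70 with Poria and by -0.58 with Atractylodes on the log2 scale, a difference of 1.28 (SE 0.177, adjusted p = 7.78e-08 in edgeR). The MT1 sum differed by -0.63 (SE 0.170, adjusted p = 0.00308), which is the opposite sign to MT2A. MT1F differed by -1.98 (SE 0.179, adjusted p = 8.17e-13) and MT1G by -1.36 (SE 0.199, adjusted p = 2.85e-07). SLC30A1 differed by -0.32 (SE 0.0534, adjusted p = 3.53e-06) and SLC39A10 by 0.81 (SE 0.122, adjusted p = 4.73e-07). Between licorice and ginseng, MT2A differed by 0.66 (SE 0.175, adjusted p = 0.00878) and SLC39A10 by 0.47 (SE 0.127, adjusted p = 0.0106).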

How the results depend on the processing

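Counting error was at least as large as the spread between libraries in 11 of 20 groups for MT1A and for MT1M, 7 for SLC30A1, 6 for MTF1, 5 for MT1X and for SLC39A10, 2 for MT1G, 1 for MT1F and 0 for MT2A and MT1E. Over alternatives other than leaving out a library, 264 of 285 values of the MT1 sum and 2061 of 2169 values of single members kept their direction and side of the threshold, and 179 of 202 counts of members called stayed within 1.5-fold. For those that did not, the cause was not tested. DESeq2's size factors moved the median of all genes by at most 0.006995 on the log2 scale and the share of upward calls by at most 2.79 percentage points.

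With MT1 genes and MT2A summed, the change of the MT1 sum turned to 0.10 for Poria at 500 against 20 µg/mL (adjusted p = 0.562 in edgeR) and to 0.54 for the Poria change minus the Atractylodes change (0.0130). It no longer passed for wortmannin (-0.14) or licorice at 500 µg/mL (-0.036) against vehicle, for licorice at 500 against 20 µg/mL (-0.13) or for angelica against peony (0.36).

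For Atractylodes at 500 against 20 µg/mL the MT1 sum passed at -0.32 with no filter, at -0.31 with only the groups compared and at -0.31 in a regression on log dose, where 5, 5 and 4 members were called. For ginseng these values were -0.45, -0.46 and -0.46, with 5, 5 and 4 members, and 1 with DESeq2's size factors. In the main fit (all 20 groups, with the filter) 0.0497% of all genes were called for Atractylodes and 0.149% for ginseng, in either direction. Counts over all genes in other settings are given below. With no filter the MT1 sum of ginseng had adjusted p = 4.28e-17 in edgeR at -0.45, where the main fit did not pass at -0.46. Not all members moved that way, as SLC30A1 for licorice at 500 against 20 µg/mL lost its call with no filter (0.233). The reason was not tested, and a pass with no filter alone is not counted as a call. Licorice against ginseng passed at -0.25 with no filter and at -0.25 with only the groups compared. The regression called 5 members with Poria, where 43.5% of all genes were called in the main fit.

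Against vehicle and with no filter, the MT1 sum passed for Atractylodes (-0.32) and ginseng (-0.18) at 500 µg/mL, ginseng at 100 µg/mL (0.16) and ginseng (0.27) and peony (0.21) at 20 µg/mL. Members called were then 6, 4, 2, 4 and 3, and 1 each for angelica and peony at 100 µg/mL. In the main fit 0.889%, 10.2%, 8.53%, 13.9% and 15.8% of all genes were called there, in the same order. For angelica and peony at 100 µg/mL the shares were 14.6% and 10%. With no filter 33789 genes were tested in place of 16093, and 331 in place of 143 were called for Atractylodes at 500 µg/mL. Ginseng at 20 µg/mL passed at 0.27 with only the groups compared. DESeq2, unrounded counts and a mean of at least 1 CPM called 3, 2 and 3 members for ginseng at 500 µg/mL, and DESeq2 and unrounded counts 1 each at 20 µg/mL. A mean of at least 1 CPM called 1 for licorice at 20 µg/mL and 1 for angelica at 100 µg/mL, where the main fit called 11.2% and 14.6% of all genes.

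Without 1 library, members called against vehicle ranged from 0 to 3 for Atractylodes and for ginseng at 500 µg/mL, from 0 to 1 for licorice at 20 and angelica at 100 µg/mL, from 0 to 2 for ginseng at 20 µg/mL and from 0 to 5 for angelica at 20 µg/mL. With every library, the main fit called 0.889%, 10.2%, 11.2%, 14.6%, 13.9% and 24.3% of all genes in these comparisons, in the same order. The MT1 sum ranged from 0.21 to 0.38 for ginseng and from 0.21 to 0.43 for angelica at 20 µg/mL. At 500 against 20 µg/mL the count ranged from 0 to 1 for Atractylodes and from 0 to 2 for ginseng, and for Poria at 500 against 100 µg/mL from 2 to 6. The main fit called 0.0497%, 0.149% and 19.3% of all genes there. For angelica against peony the count ranged from 2 to 4, where the main fit called 6.17% of all genes, and the MT1 sum from 0.39 to 0.51. Slopes of the ratio ranged from -0.17 to -0.074 for Atractylodes, from -0.030 to -0.012 for ginseng and from 0.065 to 0.11 for peony.

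In 0 of 28 comparisons did every pair of same-numbered libraries correlate over 0.1 (r from -0.240 to 0.206), a rule that cannot exclude weaker pairing. Between extracts with the same code at 500 µg/mL every r was positive. They were 0.158, 0.0580 and 0.0634 for Poria and Atractylodes and 0.206, 0.0883 and 0.0339 for licorice and ginseng. For angelica and peony they were 0.113, 0.0779 and 0.0218. With the replicate number as a block, 365 of 369 results were the same by these measures. Licorice at 500 µg/mL against vehicle then had 7 members called in place of 5, with MT1A (adjusted p = 0.0440) and MT1E (0.0453) added, and members called for Atractylodes at 500 against 20 µg/mL numbered 0. In the main fit 32.4% and 0.0497% of all genes were called in these comparisons. The block was shared by all codes, so it did not test pairing within a code.

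Over all genes, 8 were called for Atractylodes at 500 against 20 µg/mL, against 90 with no filter, 14 with only the groups compared and 15 with DESeq2. For ginseng 24 became 114 with no filter, 14 in the regression and 37 with DESeq2. For angelica 196 became 315 with no filter, 47 with only the groups compared and 95 in the regression, and for peony 563 became 152 with only the groups compared and 328 in the regression. Against vehicle, with only the groups compared, 139 in place of 611 were called for Poria, 2140 in place of 3911 for angelica and 1090 in place of 2537 for peony at 20 µg/mL. For the angelica change minus the peony change, 149 became 230 with no filter, 25 with only the groups compared and 224 with DESeq2. For Atractylodes at 500 µg/mL, 143 became 331 with no filter, 47 with only the groups compared and 215 with DESeq2.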
